A study of Homo sapiens with 8 samples.

Results

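The genes followed here are 34 targets and regulators of the transcription factor ATF4, the set of genes that cells switch on in the integrated stress response. They were taken by name from the regions of the deposited count files, after the transcript identifiers of each region had been matched to gene symbols. All 34 were found, with 1 region each, among 20165 regions. Amino acid transporters and tRNA synthetases, which ATF4 also controls, were left out of the set. The CBS region also holds a near-identical gene copy, so its counts are uncertain.

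In the integrated stress response, kinases that sense amino acid shortage, unfolded proteins, viral RNA or haem shortage phosphorylate the α subunit of the initiation factor eIF2. Most translation then falls, while mRNAs with suitable upstream open reading frames (uORFs) in the 5′ untranslated region (5′ UTR) escape, and ATF4 is the best known of them. The ATF4 protein pairs with C/EBP-type partners and switches on genes for amino acid synthesis, mitochondrial one-carbon metabolism, growth arrest and, under lasting stress, cell death. The pathway shuts itself off through PPP1R15A, which brings a phosphatase back to eIF2α. ATF4, ATF5, DDIT3 and PPP1R15A are all known for uORFs that restrain the main coding sequence when stress is low.

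ATF4 dimers bind a composite C/EBP-ATF element whose core reads TGATGNAA. This motif was searched on both strands of RefSeq promoter windows (GRCh38.p14), which run from 250 bases before to 50 bases after a gene's start. It was in 7 of the 26 members that have a window, or 26.9%, and in 4.46% of 27305 genes. Stretches of 30 bases of the 7 promoters are shown because they hold this motif, with the motif in capitals and each sequence 5′ to 3′ on the strand of its gene:
PPP1R15B: cccgccccggcTGATGCAAcctcacgctgc
ATF3: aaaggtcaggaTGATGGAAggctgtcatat
MTHFD1L: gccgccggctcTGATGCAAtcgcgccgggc
ASNS: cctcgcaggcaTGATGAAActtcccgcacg
JDP2: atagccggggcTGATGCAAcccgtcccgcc
CHAC1: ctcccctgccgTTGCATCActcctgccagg
CEBPG: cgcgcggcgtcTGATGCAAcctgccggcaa
The motif started 227 bases before the gene start in PPP1R15B (chr1:204412026-204412055, minus strand) and 191 bases before it in ATF3 (chr1:212565205-212565234, plus strand). It lay 129 bases upstream in MTHFD1L (chr6:150866346-150866375, plus strand) and 68 bases upstream in ASNS (chr7:97872458-97872487, minus strand). JDP2 (chr14:75427995-75428024, plus strand) and CEBPG (chr19:33374060-33374089, plus strand) held it 16 and 42 bases upstream. CHAC1 (chr15:40953251-40953280, plus strand) held the reverse complement at 209 bases upstream. ASNS, MTHFD1L and CEBPG return below with changes in different directions. A match of letters does not show that ATF4 was bound.

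Ribosome footprints were sequenced from OVCAR3, an established human ovarian carcinoma line, in 4 groups of 2 libraries. For the RACK1 experiment, lentivirus-infected cells carried a doxycycline-inducible shRNA against endogenous RACK1, a protein of the small ribosomal subunit, and a doxycycline-inducible, HA-tagged RACK1. This was either wild-type RACK1 (RACK1-WT, the control) or RACK1 with its sites of mono-ADP-ribosylation (MARylation) mutated (RACK1-Mut), and both received 1 µg/ml doxycycline for 48 h. For the siRNA experiment, cells were transfected for 48 h with 30 nM siRNA, either a control (siControl) or against OARD1 (siTARG1). OARD1 is the gene for TARG1, a hydrolase that removes ADP-ribose from proteins. The methods list 2 TARG1 siRNAs, and the labels do not say which was used here. Each experiment thus has its own control. The RACK1 cells alone carry the lentiviral constructs and the drug.

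Coding footprints summed to between 3100947 and 6604190 per library. Both RACK1-Mut libraries were shallower, at 4174707 and 3798750, than both RACK1-WT libraries, at 6604190 and 6174010. As an alternative, the libraries of a comparison were thinned to the same total. OARD1 stood at 32.8 and 18.7 per 1000000 coding counts (CPM) in siControl and at 1.66 and 1.91 in siTARG1, as the labels say. RACK1, whose endogenous and re-expressed footprints were counted together, stood at 4570 and 4680 CPM in RACK1-WT and at 3560 and 3450 in RACK1-Mut. All 9 epithelial ovarian markers checked (among them PAX8, EPCAM and KRT8) were detected in every library, summing to 7430 to 11500 CPM. The 5 fibroblast, leukocyte and endothelial markers with a region summed to 82 to 121 CPM. CDH5 had 0 counts in every library, which allows up to 3, and PTPRC had at most 2. Epithelial markers themselves moved in siTARG1: KRT8 (log2 fold change -1.03), KRT18 (-1.24) and WT1 (-1.15) fell and CDH1 (1.64) and KRT7 (0.47) rose. The controls of the experiments, both labelled OVCAR3, also differed: MSLN stood at 67.7 and 66.1 CPM in siControl and at 467 and 517 in RACK1-WT, and KRT7 at 667 and 624 against 2160 and 2330. The part of these shifts, and of the RACK1 level, in the results below was not tested. A footprint count moves with the amount of mRNA as well as with ribosomes per mRNA. RNA-seq was not analysed here, and in bulk cells fewer cells of a kind and less RNA per cell cannot be told apart.

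The members differ widely in how much they are translated. Levels between genes are compared as coding footprints per kilobase per 1000000 coding counts. In RACK1-WT cells PHGDH, which starts serine synthesis, was the most translated, at 551 ± 25.6 (SD, n = 2), above 97% of genes with at least 10 counts. PSAT1, which carries out the next step, followed at 364 ± 8.13, then CEBPB, a partner of ATF4 in DNA binding, at 283 ± 22.9, and SHMT2, the mitochondrial enzyme that splits serine to glycine, at 245 ± 4.49. ATF4 itself was 9th, at 98.2 ± 2.58. The least translated were ATF3 (8.15 ± 0.625), ATF5 (5.44 ± 0.132) and PPP1R15A (4.06 ± 0.0802, above 18.5% of genes), which all encode stress-induced proteins. Of the 33 pairs of neighbours in this order, 12 had overlapping libraries and thus do not differ beyond their spread.

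The siControl cells had a similar order at the top, led by PHGDH (566 ± 52.4), SHMT2 (366 ± 47.2), ASNS (272 ± 29.9) and PSAT1 (234 ± 29.8), and 21 of 33 neighbouring pairs overlapped. Some members differed widely between the controls of the experiments. GDF15, a secreted cytokine made by stressed cells, stood at 94.9 ± 0.459 in RACK1-WT and 10.2 ± 5.54 in siControl. DDIT3, which encodes the pro-apoptotic factor CHOP, stood at 24.9 ± 1.19 and 6.52 ± 2.46. NUPR1, a stress-induced chromatin protein, had 129 counts over the 4 RACK1 libraries and 0 in each of the 4 siRNA libraries, where up to 3 counts a library remain possible. DDIT4, an inhibitor of the growth kinase complex mTORC1, was the reverse, at 37.4 ± 5.42 and 80.2 ± 1.91. The experiments differ in construct, doxycycline and transfection, which cannot be told apart, so no test was made between their controls.

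**Figure D1:**
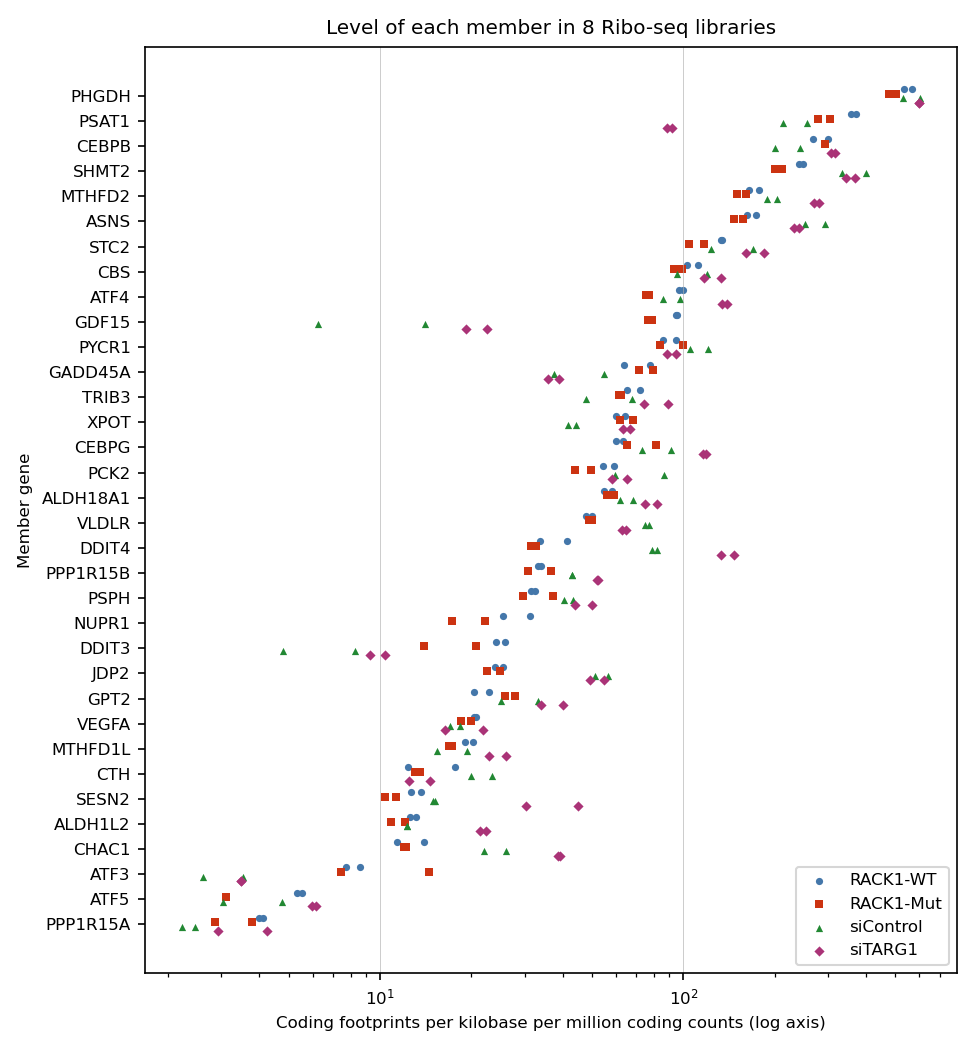
Coding footprints per kilobase per 1000000 coding counts (log axis) for each of the 34 members, with 1 point per library in the 4 groups and members ordered by their mean in RACK1-WT. PSAT1 in siTARG1 and GDF15 in both siRNA groups lie far left of the other libraries, and NUPR1 has no siRNA points because its counts there were 0.

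The first question was whether ATF4 targets are translated differently when RACK1 cannot be MARylated. In RACK1-Mut cells 25 of the 34 members stood below RACK1-WT and 9 above, with a median log2 fold change of -0.18, against 50.4% of all genes below and a median of 0. No member passed DESeq2's test at an adjusted p under 0.05, with 0.0799% of the 12520 genes tested called. At an unadjusted p under 0.05 there were 7 members, all lower, which is 20.6% of members, against 0.998% of all genes that were lower at this level and 1.64% in either direction. These 7 were ATF4, the serine and one-carbon enzymes PHGDH, PSAT1 and SHMT2, PCK2, GDF15 and STC2. edgeR's quasi-likelihood test called 2 members, PSAT1 (adjusted p 0.00757) and ATF4 (adjusted p 0.0473), and 0.24% of all genes. Both RACK1-Mut libraries were below both RACK1-WT libraries for 20 members, or 58.8%, against 18.9% of all genes, and above both for CEBPG and GPT2 (18.7% of all genes). Members tend to be well counted, and among genes averaging 100 or more normalized counts the share lower at an unadjusted p under 0.05 was 1.52%. By library, the median deviation of the members from their mean over the 4 libraries was 0.077 and 0.087 on the log2 scale in RACK1-WT and -0.114 and -0.065 in RACK1-Mut.

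Among the transcription factors and regulators, ATF4 had normalized counts of 519 and 533 in the RACK1-WT libraries and 395 and 409 in the RACK1-Mut libraries. The groups did not overlap, and the spread within each was far smaller than the gap. The log2 fold change was -0.39 (SE 0.13), 76.4% of the control, with a DESeq2 adjusted p of 1 over all genes. With exon counts in place of coding counts the value was -0.19. ATF5, a close relative of ATF4, had few footprints, at 24 and 22.9 in RACK1-WT and 13.1 and 13.2 in RACK1-Mut, for a value of -0.83 (SE 0.596). DDIT3 stood at 67.2 and 71.1 against 38.2 and 56.7 (-0.55, SE 0.343), a value that was -0.86 without RACK1-Mut replicate 2, -0.29 without RACK1-Mut replicate 1 and -0.29 in thinned libraries. With exon counts ATF5 stood at -0.47. Neither was near the threshold, since both 95% intervals reach past 0, to 0.34 and 0.12. The binding partner CEBPB, at 0.03 (SE 0.0907), had overlapping groups. The values of the other members of the group (ATF3, CEBPG, JDP2, NUPR1 and the pseudokinase TRIB3) ran from -0.55 for NUPR1 to 0.40 for ATF3. In all, 5 of the 9 members of the group had RACK1-Mut below RACK1-WT in all libraries, as for 18.9% of all genes. Of the phosphatase subunits, the stress-induced PPP1R15A stood at 42.5 and 40.9 against 38.2 and 29 (-0.31, SE 0.413), and PPP1R15B, which is made constantly, at -0.01. The PPP1R15A value was -0.52 without RACK1-Mut replicate 1, -0.13 without RACK1-Mut replicate 2, -0.13 in thinned libraries and -0.17 with exon counts.

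None of the 7 serine and one-carbon enzymes was called by DESeq2, and for 6 of them both RACK1-Mut libraries were below both RACK1-WT libraries, as for 18.9% of all genes. PSAT1, the transaminase of serine synthesis, had 2100 and 2011 normalized counts in RACK1-WT and 1534 and 1693 in RACK1-Mut. Its log2 fold change of -0.35 (SE 0.0868, DESeq2 adjusted p 0.0619) was the nearest to a call among the members. SHMT2 had 1867 and 1894 against 1505 and 1600 (-0.28, SE 0.0846, adjusted p 0.72). PHGDH, with the most footprints of the set, had 4360 and 4601 against 3809 and 4039 (-0.19, SE 0.0729). The mitochondrial folate enzymes MTHFD2 (-0.16), MTHFD1L (-0.22) and ALDH1L2 (-0.19) had values of the same sign and similar size, and PSPH, which completes serine synthesis, stood at 0.04.

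The amino acid enzymes were mixed, with values from -0.30 for PCK2, the mitochondrial enzyme that makes phosphoenolpyruvate, to 0.29 for the alanine transaminase GPT2. ASNS, which makes asparagine, had 1500 and 1379 normalized counts in RACK1-WT and 1236 and 1324 in RACK1-Mut (-0.17, SE 0.0934). The proline enzymes PYCR1 and ALDH18A1 stood at 0.00 and 0.01, with overlapping groups. In the growth arrest, mTORC1 and glutathione group, DDIT4 (-0.24) and SESN2 (-0.30), which both restrain mTORC1, did not overlap between the groups, while the glutathione-degrading CHAC1 (-0.09) and GADD45A (0.08) did. In the secreted and surface group 3 of 4 members did not overlap, all with RACK1-Mut lower, as for 18.9% of all genes. GDF15 stood at 448 and 445 against 353 and 365 (-0.31, SE 0.137), and the secreted glycoprotein STC2 had a value of -0.29 (SE 0.123). The receptor VLDLR (-0.01, or 0.0122 with total counts as the scale) and the tRNA exporter XPOT (0.04) had overlapping groups.

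**Figure D2:**
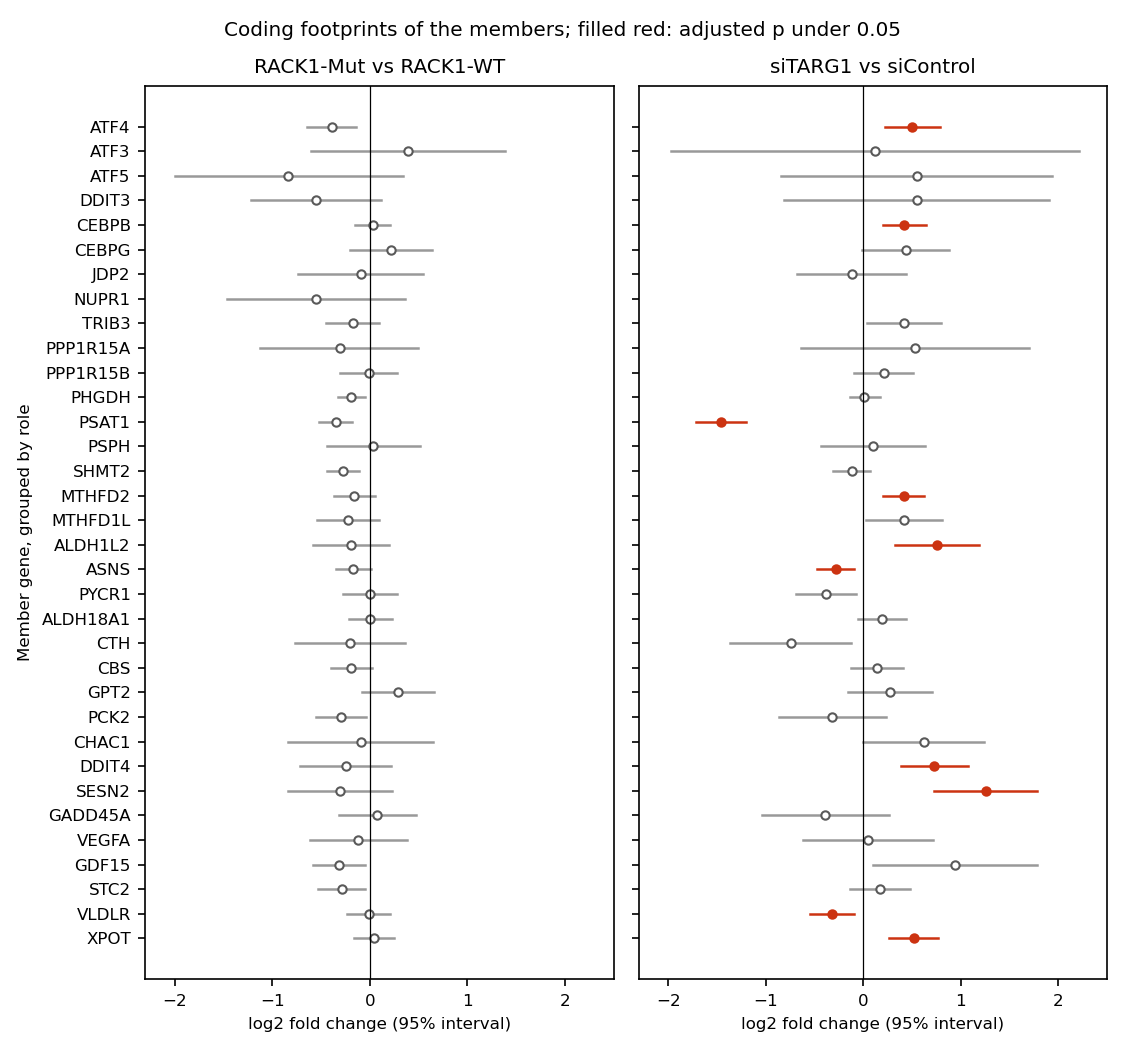
Log2 fold change of coding footprints with its 95% interval for each member, RACK1-Mut against RACK1-WT on the left and siTARG1 against siControl on the right, with members called at an adjusted p under 0.05 filled in red. On the left 25 of 34 points lie below 0 with none called, and on the right 7 members are called higher and 3 lower, with PSAT1 at -1.45.

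The second question was how ATF4 targets respond when TARG1 is depleted. Of the 33 members tested in siTARG1 cells, 7 rose, namely ATF4, CEBPB, MTHFD2, ALDH1L2, DDIT4, SESN2 and XPOT, and 3 fell, namely PSAT1, ASNS and VLDLR. The 10 calls are 30.3% of members, while 16.4% of the 12056 genes tested were called (7.18% higher and 9.19% lower). Among genes averaging 100 or more normalized counts, 43.5% of 23 members and 25% of all genes were called. The median log2 fold change over members was 0.21, against 0 over all genes, with 24 members above 0 (50.4% of all genes) and 9 below. siTARG1 lay above siControl in all libraries for 17 members, or 51.5%, against 31.2% of all genes, and below in all for 6, against 31.4%. At an unadjusted p under 0.05 there were 16 members, or 48.5%, against 26% of all genes. edgeR called 18 members, which included these 10, and 28.8% of all genes. By library, the median deviation of the members was -0.003 and -0.183 for siControl but 0.169 and 0.078 for siTARG1.

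ATF4 had 380 and 334 normalized counts in siControl and 514 and 500 in siTARG1. The libraries of the 2 groups did not overlap, with a rise of 0.51 on the log2 scale (SE 0.145, DESeq2 adjusted p 0.00493), or 1.42-fold. Its partner CEBPB rose from 927 and 768 to 1146 and 1125 (0.42, SE 0.112, adjusted p 0.00232). The other uORF-bearing factors had few footprints. ATF5 had 14.9 and 9.54 in siControl and 18.3 and 18 in siTARG1 (0.55, SE 0.709), and DDIT3 had 9.67 and 16.7 against 20 and 18 (0.55, SE 0.695). PPP1R15A, with 18.5 and 16.7 against 20.8 and 30.4, stood at 0.53 (SE 0.599). For all 3 the siTARG1 libraries were the higher, as for 31.2% of all genes, yet the intervals cover both signs and none was called. These values rest on single libraries. ATF5 stood at 0.28 without siControl replicate 2, 0.92 without siControl replicate 1 and 0.12 with exon counts, and DDIT3 at 0.18 without siControl replicate 1 and 0.97 without siControl replicate 2. PPP1R15A stood at 0.25 without siTARG1 replicate 2 and 0.35 in thinned libraries. CEBPG (0.44) and TRIB3 (0.42) were higher without overlap and not called by DESeq2 on this comparison alone, while edgeR called both. TRIB3 was also called by DESeq2 with all 8 libraries fitted together. JDP2 (-0.12) overlapped, and ATF3, with 5.27 to 7.15 normalized counts per library, received no adjusted p.

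Within the serine and one-carbon enzymes the directions split. PSAT1 fell from 1050 and 876 normalized counts to 343 and 362, to 36.5% of the control, by -1.45 on the log2 scale (SE 0.132, DESeq2 adjusted p 1.49e-25). The enzymes on either side of PSAT1 in serine synthesis were not called: PHGDH had 3571 and 3130 against 3361 and 3402 (0.01, SE 0.0791), and PSPH 101 and 109 against 118 and 106 (0.10, SE 0.268). SHMT2 stood at -0.12 (SE 0.096) with overlapping groups. By contrast, MTHFD2, which oxidizes methylene-folate in mitochondria, rose from 789 and 736 to 995 and 1041 (0.41, SE 0.107, adjusted p 0.00137). ALDH1L2, which acts on formyl-folate in the same compartment, rose from 126 and 126 to 217 and 209 (0.76, SE 0.217, adjusted p 0.00487). MTHFD1L, which releases formate, was higher without overlap but not called by DESeq2 (0.42, SE 0.2, adjusted p 0.145), while edgeR called it (adjusted p 0.0277).

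The annotated 3′ UTR of PSAT1 holds a 7-base stretch of TGAACATA and another of TGAATATA, sequences picked because an earlier look at these data found them among genes that moved in siTARG1. Of 19019 regions with a 3′ UTR, 17.5% hold the first and 22.4% the second. Of the 34 members 3 hold the first and 7 the second. PSAT1 is the only member with both, but it is itself a gene that moved, so its match is no independent result. The share of all regions with both was not counted. CEBPG and GPT2 also hold the first, and ALDH1L2, XPOT, VLDLR, PPP1R15B, JDP2 and PSPH the second. What these letters do in the siRNA experiment was not tested.

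Of the amino acid enzymes, ASNS fell from 1830 and 1565 to 1419 and 1383 (-0.28, SE 0.0967, DESeq2 adjusted p 0.0267). Without siControl replicate 1 the value was -0.17, and with total counts as the scale ASNS was not called. PYCR1 (-0.38, SE 0.159) and CTH (-0.74, SE 0.32), the proline and cysteine makers, were lower without overlap. DESeq2 on this comparison alone did not call them, with adjusted p of 0.0834 and 0.0946. Both were called by edgeR and by DESeq2 with all 8 libraries fitted together. ALDH18A1 (0.19), CBS (0.15), GPT2 (0.27) and PCK2 (-0.32) made up the rest, of which edgeR called PCK2. None of the 7 enzymes of this group was called higher, though 3 had values above 0.

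Both inhibitors of mTORC1 rose. SESN2, a leucine-sensing inhibitor, went from 80.9 and 79.9 normalized counts in siControl to 228 and 154 in siTARG1 (1.26, SE 0.269, adjusted p 6.01e-05), which is 2.39-fold. The siTARG1 libraries were far apart, and without replicate 1 the value was 0.94. DDIT4 went from 211 and 204 to 359 and 328 (0.73, SE 0.175, adjusted p 0.000486). CHAC1 stood at 67.7 and 57.2 against 94.9 and 97.8 (0.62, SE 0.314, DESeq2 adjusted p 0.177, called by edgeR), and GADD45A at 101 and 69.1 against 62.4 and 68.6 (-0.39, SE 0.334). XPOT, the exporter of tRNA from the nucleus, rose from 472 and 446 to 639 and 679 (0.52, SE 0.128, adjusted p 0.000724).

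Among secreted and surface proteins, VLDLR fell from 726 and 746 to 578 and 602 (-0.32, SE 0.118, adjusted p 0.0398). It was not called with exon counts, with total counts as the scale or in thinned libraries. GDF15 had 48.3 and 21.5 in siControl and 62.4 and 74.2 in siTARG1 (0.94, SE 0.43, DESeq2 adjusted p 0.123, and 0.0202 by edgeR). This value rests on the controls, at 0.49 without siControl replicate 2 and 1.66 without siControl replicate 1. STC2 (0.17) and VEGFA (0.05) had overlapping groups.

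Each of the 10 siTARG1 calls other than PSAT1 was lost in at least 1 fit that left out a library. With siTARG1 replicate 1 left out PSAT1 alone was called, and 3 members were called without siTARG1 replicate 2 (PSAT1, DDIT4 and SESN2), without siControl replicate 1 (CEBPB, PSAT1 and SESN2) or without siControl replicate 2 (PSAT1, ASNS and SESN2). These fits have 1 library in a group, and calls over all genes dropped too, from 1974 to between 564 and 744.

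Footprints in the 5′ UTR report on uORFs. Over the 8 libraries ATF5 had 60.5% of its 5′ UTR and coding footprints in the 5′ UTR, PPP1R15A 52.1%, DDIT3 51.2% and ATF4 44.3%. Each was above 98.8% or more of the 10963 genes with at least 100 counts, whose median was 1.67%. PPP1R15B, also known for uORFs, had 26.9%. Per base, the 5′ UTR of PPP1R15A carried 8.2 times the footprint density of its coding sequence. The same ratio was 2.07 for PPP1R15B, 1.91 for ATF5, 1.52 for DDIT3 and 0.612 for ATF4. PSPH (17.7%) and TRIB3 (16.4%) came next, and MTHFD2 was lowest at 0.0276%, from 2 footprints. The last uORF of ATF4 runs into its coding sequence, so footprints on the overlap count as coding.

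No member's 5′ UTR share passed DESeq2's test in either comparison, and no gene of 6116 (RACK1) or 5334 (siRNA) did, 0% in both. At an unadjusted p under 0.05 there were 0 of 25 members in RACK1-Mut and 1 of 22 in siTARG1, against 0.572% and 1.91% of genes. edgeR also called 0, with 1 member at an unadjusted p under 0.05 in each comparison, DDIT4 and VLDLR, against 3.25% and 5.47% of genes. The standard errors of the share were 0.519 or more for every member tested, and changes of the size described next did not pass this fit.

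ATF4 had 41.3% and 43% of its footprints in the 5′ UTR in RACK1-WT and 48.6% and 50.2% in RACK1-Mut. In the siRNA experiment the share was 44.5% and 49.7% in siControl and 42.6% and 40.9% in siTARG1. Neither pair of groups overlapped, and the share was higher where coding footprints stood lower and lower where they rose. Coding footprints are part of the share, so this order largely follows from the coding changes and is no separate result. The log2 change of the share was 0.42 (SE 0.519, adjusted p 1) in RACK1-Mut and -0.31 (SE 0.557, adjusted p 0.999) in siTARG1. The 5′ UTR counts alone stood at 0.03 and 0.20. Groups do not overlap in this share for 29.9% of genes in RACK1-Mut and 34.5% in siTARG1, so the pattern in ATF4 is a description. The difference between the comparisons was -0.73 (SE 0.597), with an unadjusted p of 0.22, and 0% of 7258 genes were called for it. At an unadjusted p under 0.05, 1.98% of genes and 1 member, VLDLR, differed in share.

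ATF5 followed the same order with fewer footprints, and its share too contains the coding counts. It stood at 45.6% and 53.3% in RACK1-WT and 65.6% and 54.5% in RACK1-Mut, then 66.7% and 79.5% in siControl and 62.7% and 61.9% in siTARG1. DDIT3 overlapped in both, with 53.2% and 44.9% against 62.8% and 48.8%, and 56% and 48.1% against 55.6% and 30.4%. PPP1R15A overlapped as well, with 47.6% and 49.5% against 40.7% and 63.3%, and 56.2% and 57.6% against 57.6% and 51.8%. The 2 RACK1-Mut libraries of PPP1R15A lay further apart than any group means.

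VLDLR, whose coding footprints fell in siTARG1, went the other way in its 5′ UTR. It had 7 and 9 counts there in siControl and 26 and 27 in siTARG1, or 0.84% and 1.42% against 3.61% and 4.8% of its footprints. The log2 change of the share was 1.97 (SE 0.732, unadjusted p 0.0072, adjusted p 0.999), and by edgeR the unadjusted p was 0.000816 and the adjusted p 0.793. SESN2 had 1 and 1 5′ UTR counts in siControl and 7 and 13 in siTARG1. XPOT, which rose in coding counts, had a share of 5.46% and 5.32% in siControl and 3.64% and 3.67% in siTARG1. In all, 7 of 25 members did not overlap in RACK1-Mut (28%) and 11 of 22 in siTARG1 (50%), against 29.9% and 34.5% of genes.

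**Figure D3:**
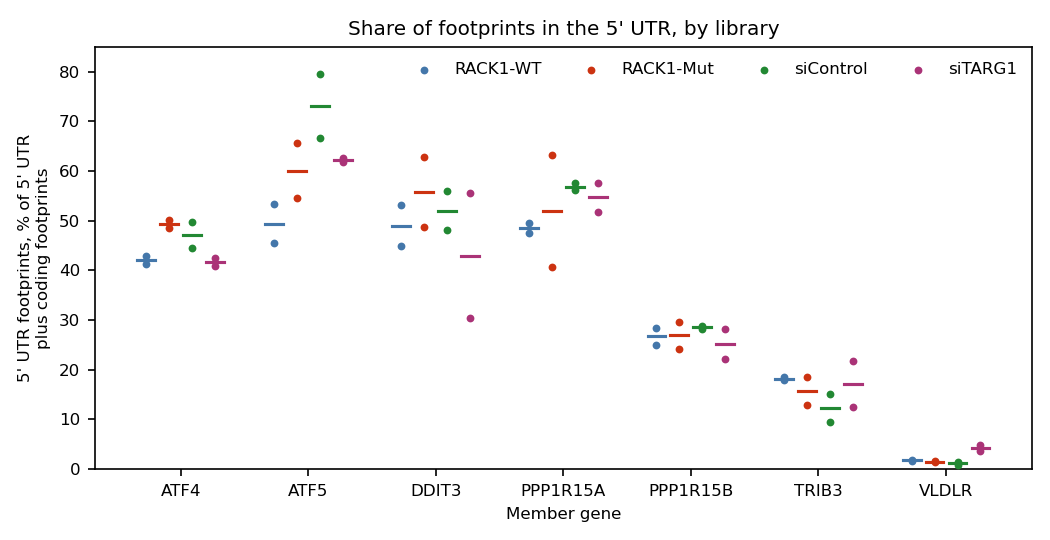
Percent of 5′ UTR plus coding footprints that lay in the 5′ UTR, for 7 members, with 1 point per library and a bar at the mean of each group of 2. ATF4 libraries separate in both comparisons, in opposite directions, while DDIT3 and PPP1R15A libraries of the 2 groups overlap.

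Set side by side, 17 of the 33 members tested in both comparisons had a negative log2 fold change in RACK1-Mut and a positive one in siTARG1, or 51.5%, against 26.1% of 11854 genes. Since 25 of 34 members stood lower in RACK1-Mut and 24 of 33 higher in siTARG1, this share largely restates those 2 tendencies. Whether the signs oppose each other gene by gene was not tested. The comparisons share no library, and their controls differ in construct, drug, transfection and in markers such as MSLN and KRT7, which cannot be told apart. Whether a member's change differed between them was tested in 1 fit of all 8 libraries, as the siTARG1 effect minus the RACK1-Mut effect. It differed for 10 of 34 members, 9 with a higher value in siTARG1, where 12.3% of 12955 genes were called (5.43% higher and 6.91% lower). ATF4 differed by 0.90 (SE 0.174, DESeq2 adjusted p 7.97e-06), and SESN2 by 1.57 (SE 0.354, adjusted p 0.000208). GDF15 and MTHFD1L were called for the difference but not by the DESeq2 fit of either comparison alone. GDF15 differed by 1.22 (SE 0.316, DESeq2 adjusted p 0.00175) and MTHFD1L by 0.64 (SE 0.234, adjusted p 0.0434). With all 8 libraries in 1 DESeq2 fit, GDF15 was also called for siTARG1 against siControl. MTHFD1L was not called with exon counts, and with a library left out it was called only without siControl replicate 1. DDIT4 (0.98), ALDH1L2 (0.96), MTHFD2 (0.58), XPOT (0.48) and CEBPB (0.39) complete the 9. With a library left out 6 to 14 members were called, the fewest without siControl replicate 2, RACK1-WT replicate 2 or RACK1-Mut replicate 1, and ATF4, PSAT1, MTHFD2 and SESN2 were called each time. PSAT1 had a lower value in both comparisons, -0.35 and -1.45, and the siTARG1 value was lower by a difference of -1.10 (SE 0.144, adjusted p 2.19e-12). ASNS (-0.10, SE 0.128) and SHMT2 (0.16, SE 0.124) were not called for a difference, with intervals that leave room for either sign. TRIB3 (0.60, SE 0.229, DESeq2 adjusted p 0.057) was just outside the threshold. Its difference was called by edgeR, with total counts as the scale, with at least 10 counts in every library and with exon counts. It was not called with replicate number as a block.

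**Figure D4:**
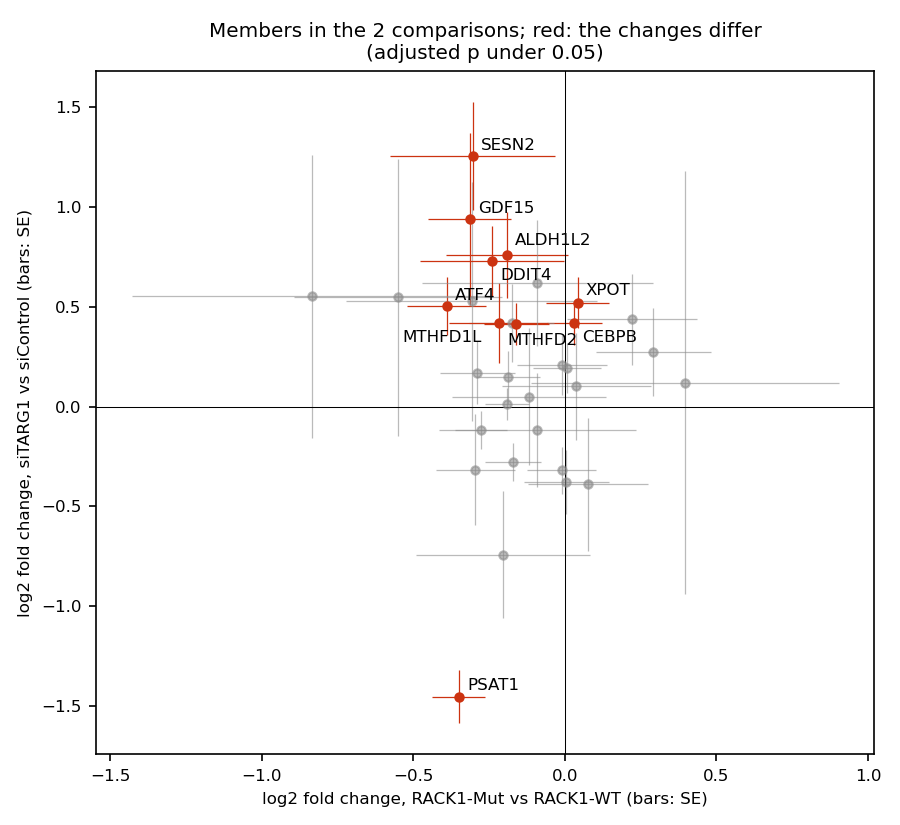
Log2 fold change of each of 33 members in RACK1-Mut against RACK1-WT (horizontal) and in siTARG1 against siControl (vertical), with standard errors as bars and the 10 members whose changes differ in red. Of these 10, 9 lie above 0 on the vertical axis and PSAT1 lies at the lower left.

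Other genes of the pathway were read through 5 lists with 45 genes, of which 43 had a region and 41 were tested. In RACK1-Mut cells 0 of 41 were called by DESeq2, and 2 had an unadjusted p under 0.05, GLDC and GOT1. In siTARG1 cells 3 rose and 4 fell, 17.1% of those tested, close to the 16.4% of all genes. Of the 7 eIF2 kinases and regulators, EIF2AK4 (GCN2, the kinase that senses uncharged tRNA) rose from 94.9 and 94.2 normalized counts to 177 and 184 (0.93, SE 0.242, adjusted p 0.00148). The other kinases EIF2AK1, EIF2AK2 and EIF2AK3 stood at -0.02, 0.11 and -0.38. Of 7 subunits of eIF2 and of its exchange factor eIF2B, EIF2B2 fell (-0.60, adjusted p 0.000243), and of 4 reinitiation factors MCTS1 fell (-0.61, adjusted p 0.00383). Counterparts outside the ATF4 set, such as cytosolic forms of its enzymes, had 1 of 15 higher, the glycine-cleaving GLDC (1.69, SE 0.517, from 17.6 and 14.3 to 63.3 and 39.4), and 2 lower, the aspartate transaminases GOT1 (-0.41) and GOT2 (-0.57). In the other arms of the unfolded protein response, HSPA5, the chief chaperone of the endoplasmic reticulum, rose (0.35, SE 0.0643, adjusted p 1.29e-06), and the other 7 genes were not called.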

How the data were processed

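Ribo-seq was carried out in OVCAR3 cells, with 4 groups of 2 libraries grouped by sample title. The authors trimmed reads with FASTX and aligned them with Bowtie 1.1.2 and TopHat2 2.1.1 to the transcriptome of hg19. They deposited raw counts and RPKM per gene region (Plastid, GENCODE 24). Per the file headers reads of 26 to 36 nt were placed by an offset of 14 nt from their 5′ end, but the study describes one from the 3′ end. Whether molecular identifiers were collapsed is not given in the sources used here. Deposited RPKM served only to work back the number of alignments. Exon counts were 27.76% to 57.21% of alignments.

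Symbols came from GENCODE 44 for 97.3% of 20165 regions. Coding counts were tested with DESeq2 1.42.0 (R 4.3.3), each comparison alone, on genes with at least 10 counts over the libraries fitted, with Benjamini-Hochberg adjustment over all genes tested and calls at 0.05. The 5′ UTR share was the region-by-group term of 1 DESeq2 fit of 5′ UTR and coding counts, with at least 10 of each. The difference between comparisons was a contrast over 8 libraries. edgeR 4.0.16 was the alternative. Members and lists were chosen with earlier results of these data known, so no list was tested. Named with values were members called in any test, ATF4, ATF5, DDIT3 and PPP1R15A, and per comparison the 3 largest changes at a mean normalized count of at least 50; other members are given by role. EIF2B5, MTHFD1 and PECAM1 matched no region. The methods describe the 2 libraries of a group as independent biological samples. The p-values rest on the spread between libraries, with each gene's variance drawn toward a trend over all genes. Intervals cover no other error.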

Additional observations from a re-analysis of the deposited data

Results flagged for a closer look

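For 10 of 34 members the change in siTARG1 cells differed from that in RACK1-Mut cells by the test of the difference itself, over all 8 libraries. The same test called 12.3% of 12955 genes, 5.43% higher and 6.91% lower. The siTARG1 effect minus the RACK1-Mut effect was, on the log2 scale, 0.90 for ATF4, 0.39 for CEBPB, 0.58 for MTHFD2, 0.64 for MTHFD1L, 0.96 for ALDH1L2, 0.98 for DDIT4, 1.57 for SESN2, 1.22 for GDF15 and 0.48 for XPOT. It was -1.10 for PSAT1. With a library left out 6 to 14 members were called. Both siTARG1 libraries lay above both siControl libraries for the 9 with a positive value (31.2% of all genes), and below them for PSAT1 (31.4% of all genes). These 10 were picked by a test on the same libraries, so this is no separate support. The groups of 2 libraries were too small to look for a library apart from its group.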

How the results depend on the processing

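Chosen after seeing the data were the thinned libraries, the 5′ UTR counts alone, the local dispersion trend and the difference in 5′ UTR share, and the other alternatives were planned. In RACK1-Mut cells 0 members were called by DESeq2. There was 1 at an adjusted p under 0.1, with at least 10 counts in every library and with all 8 libraries fitted together (PSAT1 in each), and 2 with edgeR. The member median of -0.18 was -0.15 in thinned libraries, -0.16 with total coding counts as the scale and ran from -0.19 to -0.15 with a library left out, where 0 members were called each time. VLDLR turned from -0.01 to 0.0122 with total coding counts as the scale and to 0.0477 in thinned libraries. With a library left out VLDLR ran from -0.051 to 0.0319, XPOT from -0.0311 to 0.1128 and CEBPB from -0.0408 to 0.1062, all in RACK1-Mut cells and none called. In siTARG1 cells 10 members were called, 18 with edgeR and from 1 to 3 with a library left out, with a median from 0.21 to 0.32. The count of all genes called went from 10 to 30 with edgeR in RACK1-Mut and from 1974 to 3470 in siTARG1. The 5′ UTR share had 0 calls in all its alternatives. The difference between the comparisons was called for 10 members and for 6 to 14 with a library left out, the lowest without siControl replicate 2, RACK1-WT replicate 2 or RACK1-Mut replicate 1. The labels do not say whether same-numbered libraries were paired. The correlation of deviations between them was 0.0832 in the RACK1 experiment and 0.0307 in the siRNA experiment, which cannot settle it. In the siRNA experiment same-numbered libraries had similar coding totals, 4207939 and 4207861 for replicate 1 and 3100947 and 3145173 for replicate 2. With the replicate block 0 members were called in RACK1-Mut, 7 in siTARG1 (without ALDH1L2, ASNS and VLDLR), 0 for the 5′ UTR share in both comparisons, and 5 for the difference (ATF4, PSAT1, MTHFD2, DDIT4 and SESN2). Of the values of named members under alternatives, 283 kept their direction and side of the threshold, 7 were no longer past it, 7 came past it and 2 turned, and with a library left out 85 were kept, 30 were no longer past it and 5 turned. The cause was not tested in any of these. Members with few footprints, such as ATF5, DDIT3 and PPP1R15A, had wide intervals.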
